A study of Mus musculus with 2 samples.

Results

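The fibroblasts and smooth muscle cells of the mesenteric CD31+ preparation were the few cell barcodes with neither endothelial nor blood cell identity that carried transcripts of type I collagen, decorin or smooth muscle actin and transgelin. A barcode was a member when it had at least 2000 unique molecular identifiers (UMIs, each standing for 1 captured transcript), at most 10% mitochondrial UMIs, at most 1 UMI of the endothelial cadherin gene Cdh5, 0 UMIs of the leukocyte gene Ptprc, and at least 20 UMIs summed over Col1a1, Col1a2, Dcn, Acta2 and Tagln. In all, 51 of 11273 barcodes met the rule, 25 of 6814 in the control library and 26 of 4459 in the Flcn iΔEC library. The levels of those 7 genes chose the members, so they are given here only as a description.

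Fibroblasts build the connective tissue of the mesentery: they secrete fibrillar collagens, proteoglycans and elastic fibre components, and they supply growth factors and guidance cues to nearby blood and lymphatic vessels. Smooth muscle cells wrap arteries, veins and collecting lymphatic vessels, and their tone depends on smooth muscle actin, smooth muscle myosin and the proteins that link actin to the membrane. Both kinds of cell lie next to the endothelium.

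The study compared endothelial loss of folliculin (Flcn), a tumour suppressor that restrains the MiT/TFE transcription factors, with control mice by single-cell RNA sequencing at postnatal day 8 (P8). Each genotype had 1 library, made from pooled cells of 3 mice on the C57BL/6 background. Flcn iΔEC mice were Cdh5-BAC-CreERT2+ Flcn flox/flox, and the genotype of the controls was not specified further. CD31+ cells were taken from the mesentery with magnetic beads after 40 µg of 4-hydroxytamoxifen had been given under the skin, first at P2, then at P3.5 and P5 and last at P6.5, and transcripts were counted with 3′ chemistry, in which counts do not scale with transcript length. The Cre recombinase was driven by an endothelial promoter, so deletion was not aimed at fibroblasts or smooth muscle cells. CD31 marks endothelium and some blood cells, so the stromal cells present are those the bead selection carried over and need not represent the mesentery. With 1 library per genotype, no difference between genotypes has a replicate to check it, and mouse, sex, cell capture and genotype cannot be told apart.

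The members held 373380 UMIs in the control library and 377253 in the Flcn iΔEC library, of 64639756 and 60805779 in the full libraries. A control member had 8935 to 22290 UMIs with a median of 14074, and a Flcn iΔEC member had 5958 to 23579 with a median of 14294.5. The members made up 0.367% of control barcodes (95% Clopper-Pearson interval 0.238% to 0.541%) and 0.583% of Flcn iΔEC barcodes (0.381% to 0.853%). Of the barcodes without a Ptprc UMI that passed the depth and mitochondrial limits, they made up 3.26% of 767 in the control library (2.12% to 4.77%) and 2.59% of 1002 in the Flcn iΔEC library (1.70% to 3.78%). The members were thus a similarly small part of the barcodes without a Ptprc UMI in both libraries. Whether all of those barcodes were non-blood cells was not tested. All intervals here cover counting error only.

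The threshold on the summed UMIs fell in a wide gap. The lowest members had 21, 34 and 36 UMIs over the 5 genes, while the highest of the 672 barcodes that met every other condition had 8, 2 and 2, and 38 of those 672 had any. No member had a Cdh5 UMI, no member was called a doublet by the Scrublet method, and no member shared its barcode sequence with the other library. Other barcodes failed only the Cdh5 condition, 20 in the control library and 28 in the Flcn iΔEC library. They were deeper, with median UMIs of 27989 and 35501, their median Cdh5 counts were 23.5 and 25.5, and 80.1% and 91.9% of their rule UMIs came from Acta2 and Tagln.

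Levels are given as CPM, the UMIs of a gene summed over the cells of a set and scaled to 10⁶ UMIs of that set, with exact Poisson 95% intervals for some. As a check of the label, marker lists were summed without the genes of the rule. The 7 fibroblast markers left reached 12054.7 CPM in control members and 17937.6 CPM in Flcn iΔEC members, mostly from Col3a1 (9438.1 and 13301.4 CPM). They were at 199.5 and 60.7 CPM in the endothelial barcodes, which include those that failed only the Cdh5 condition. In the hematopoietic barcodes, 7 of which failed only the Ptprc condition, they were at 13.1 and 49.9 CPM. The highest Flcn iΔEC hematopoietic barcode was at 27641.7 CPM, against a median of 0. The 9 smooth muscle markers left reached 3730.8 and 3178.2 CPM in members against 148.2 and 93.3 CPM in endothelial barcodes. By cell, 31 of the 51 members had 20 or more UMIs of these fibroblast markers only, 9 of the smooth muscle markers only and 11 of both. Outside the rule, Col3a1, Eln and Sparc were among the 10 most abundant genes of the members once mitochondrial and ribosomal ones were set aside. The label did not describe every member fully. Of the 51 members, 11 also carried 20 or more UMIs of mesothelial or glial marker genes, 6 of them mesothelial and 5 glial. All 11 fall among the 31 with fibroblast markers only, so that count does not tell fibroblasts from mesothelial or glial cells.

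Marker lists of other cell types were low. Without Cdh5, the 7 pan-endothelial markers left summed to 160.7 CPM in control members and 106.0 CPM in Flcn iΔEC members, against 6083.3 and 5130.9 CPM in endothelial barcodes, with Esam the most abundant in members (99.1 and 45.1 CPM). The 5 lymphatic endothelial markers summed to 34.8 and 21.2 CPM, with Prox1 and Flt4 at 0. The T cell markers (6 genes) summed to 50.9 and 18.6 CPM, the B cell markers (6 genes) to 29.5 and 15.9 CPM, the myeloid markers (6 genes) to 50.9 and 116.6 CPM, mostly Cd74, and the 4 neutrophil markers were at 0. Erythroid markers (5 genes) summed to 50.9 and 58.3 CPM and epithelial markers (6 genes) to 13.4 and 2.65 CPM. The 9 lymph node stroma markers found summed to 291.9 and 212.1 CPM, and the 3 markers of interstitial cells of Cajal to 83.03 and 98.1 CPM. Adipocyte markers (6 genes) summed to 417.8 and 824.4 CPM, mostly Lpl (303 and 716 CPM), while Adipoq, Plin1 and Cidec were at 0.

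**Figure D1:**
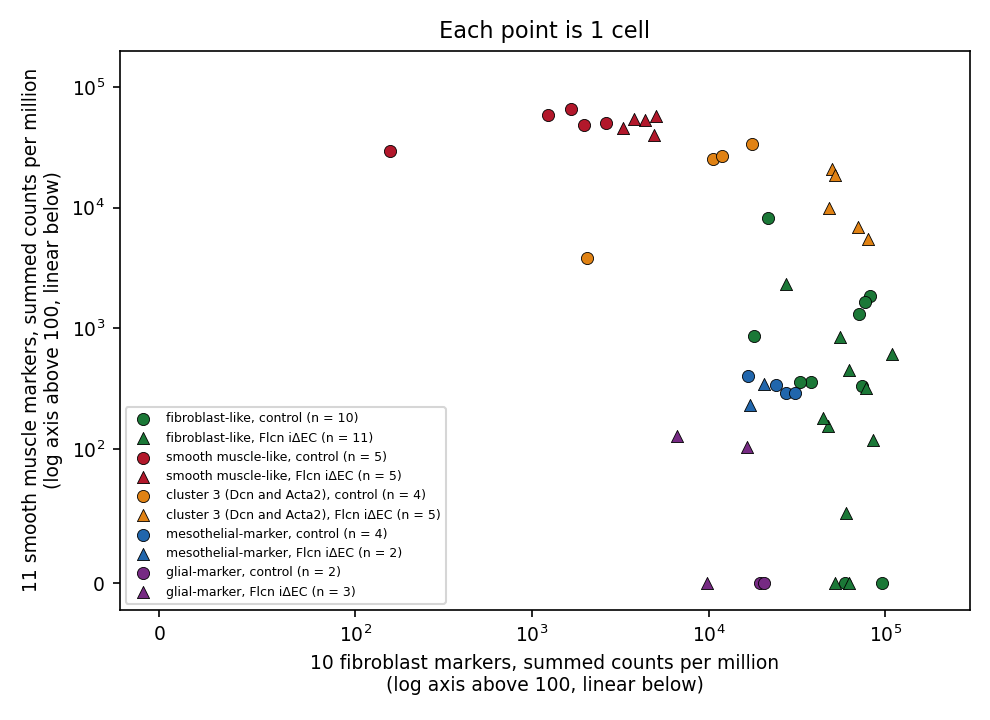
Summed CPM of 10 fibroblast markers (x axis) and 11 smooth muscle markers (y axis) in each of the 51 members, on axes linear near 0 and logarithmic above, the genes of the rule included, coloured by set, with circles for control and triangles for Flcn iΔEC. Cells of the smooth muscle-like set sit high on the y axis in both libraries, and the fibroblast-like set lies far along the x axis.

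Clustering of the 51 members on their variable genes gave 3 clusters. The largest held 32 cells, 16 from each library, and its most distinctive genes mixed fibroblast genes (Clec3b, Ly6a, Fmo2) with mesothelial (Krt19, Upk3b) and glial ones, so it was split by marker UMIs after the data were seen. Its 21 cells with fewer than 20 mesothelial or glial marker UMIs, 10 control and 11 Flcn iΔEC, are called fibroblast-like. The second cluster, 10 cells with 5 from each library, carried the smooth muscle markers, stayed together in every other clustering run, and is called smooth muscle-like. The last, cluster 3, held 4 control and 5 Flcn iΔEC cells with transcripts of both kinds and is given no cell type name. The genes that define a cluster also formed it, so they describe it and nothing more.

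**Figure D2:**
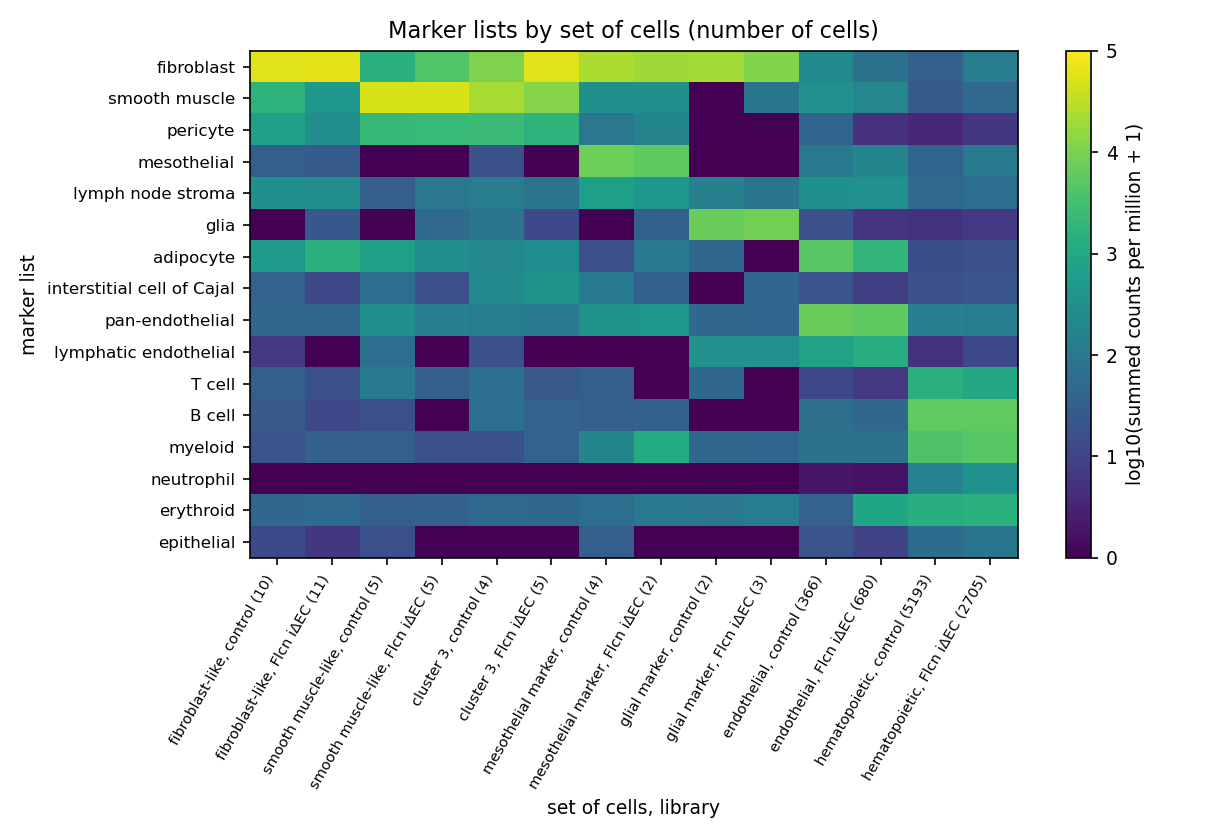
Summed level of 16 marker lists, as log10 of CPM plus 1, in 7 sets of cells by library, with lighter shades for higher levels. The mesothelial and glial lists are highest in the small sets chosen by them, and the pan-endothelial list is low in the member sets beside the endothelial barcodes.

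The smooth muscle-like cells carried transcripts of many contractile genes. Acta2, a gene of the rule that encodes smooth muscle actin, stood at 20874 CPM in control cells (19763 to 22032) against 18014 CPM in Flcn iΔEC cells (16965 to 19110). Tagln, also of the rule, for the actin-binding protein transgelin, stood at 15857 and 19323 CPM. The control cells had 139 to 375 Acta2 UMIs and the Flcn iΔEC cells 136 to 301, and these ranges overlap. Endothelial barcodes had 67.1 and 73.5 CPM of Acta2.

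Genes that the rule did not use marked the same cells. Myh11, the smooth muscle myosin heavy chain, was at 3735 CPM in control against 2536 CPM in Flcn iΔEC smooth muscle-like cells. Calponin (Cnn1) was at 554 and 654 CPM. The intermediate filament gene Des was at 870.4 and 1571 CPM. Enteric-type actin Actg2 was also present, at 1092 and 1162 CPM. The fibroblast proteoglycan gene Lum was at 0 in these cells in both libraries, and Pdgfra, a fibroblast receptor, was at 0 as well. Eln, for elastin, was among their most abundant transcripts, at 20843 and 27814 CPM. Over 22 contractile genes, without Acta2 and Tagln, control cells ranged from 31097 to 49203 CPM with a median of 48082, and Flcn iΔEC cells from 32421 to 39801 CPM with a median of 38134.

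Several contractile genes are known targets of serum response factor, which binds the CArG box, a motif of 10 letters searched here, as exact matches only, on both strands in the 250 bases before the start of each gene. Sequences were taken from RefSeq on build GRCm38.p6, and 21 of 24 contractile genes had an entry, with none for Tagln, Myh11 and Actg2. An exact match was found in 482 of 32851 promoter windows (1.47%), that is in 439 of 27025 genes (1.62%). Of the 21 contractile genes, 3 held one: Myl9, Vcl and Myl6. Of 7 fibrillar collagen genes, 5 had an entry (none for Col1a1 and Col5a2) and 0 held one. The windows of Acta2 (chr19:34255374-34255623, minus strand), with no exact match, and of Myl9 (chr2:156775214-156775463, plus strand) and Vcl (chr14:20929148-20929397, plus strand) are shown to place the motif, in capitals, beside the smooth muscle actin gene. The motif began 161 bases before the start in Myl9, the regulatory light chain gene, and 227 bases before it in Vcl, which encodes vinculin. A match is a description of these letters. Sequences 1 letter away from the motif were not searched for, and the known CArG boxes of Acta2 are of that kind, so no exact match does not mean that a window lacks a CArG box.
Acta2: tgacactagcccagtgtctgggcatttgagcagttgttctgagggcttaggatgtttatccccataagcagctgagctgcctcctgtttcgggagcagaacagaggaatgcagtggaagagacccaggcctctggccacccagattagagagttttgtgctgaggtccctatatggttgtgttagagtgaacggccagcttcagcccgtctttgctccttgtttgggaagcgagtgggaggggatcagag
Myl9: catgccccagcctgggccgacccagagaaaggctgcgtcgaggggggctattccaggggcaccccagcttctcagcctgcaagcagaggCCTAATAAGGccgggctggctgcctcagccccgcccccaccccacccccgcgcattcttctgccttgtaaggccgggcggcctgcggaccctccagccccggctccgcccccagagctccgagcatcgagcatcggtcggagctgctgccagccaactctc
Vcl: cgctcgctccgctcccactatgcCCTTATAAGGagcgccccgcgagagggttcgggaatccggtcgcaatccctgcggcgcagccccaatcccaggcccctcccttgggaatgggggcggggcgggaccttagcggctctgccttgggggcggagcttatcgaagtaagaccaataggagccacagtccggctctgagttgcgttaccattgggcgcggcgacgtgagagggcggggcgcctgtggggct

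Pericyte markers were found in this set, in cluster 3 and in fibroblast-like cells. The 9 genes summed to 2215.6 CPM in control against 2323.3 CPM in Flcn iΔEC smooth muscle-like cells. Ndufa4l2 was the most abundant of them (791 and 1227 CPM), and Notch3, the mural cell Notch receptor, was at 475 and 491 CPM. The pericyte gene Rgs5 came from 1 control cell, at 601 CPM, and was at 0 in the Flcn iΔEC cells. In cluster 3 the same genes summed to 2581.4 CPM in control against 1723.3 CPM in Flcn iΔEC cells. There, 1 control cell had 94 pericyte marker UMIs, 16 of them Rgs5, and Flcn iΔEC cells also had Rgs5, with 2 and 10 UMIs. Among the fibroblast-like cells, Rgs5 was found in 3 control cells, with 5, 4 and 23 UMIs, and in 1 Flcn iΔEC cell, with 6.

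Cluster 3 carried contractile and matrix transcripts in the same cells. Among genes of the rule, given as description, Acta2 was at 9898 CPM in its control cells and 4631 CPM in its Flcn iΔEC cells. Col1a1 was at 1694 and 17519.7 CPM. Col3a1, outside the rule, for the partner collagen of type I fibres, was at 2598 and 16526 CPM, with 15 to 64 UMIs per cell against 204 to 324, ranges that do not overlap. Pdgfrb, a receptor of mural cells and fibroblasts, was even, at 559 and 586 CPM, as was Figf, at 444 and 347 CPM. Flrt1, which encodes a membrane adhesion protein, had 74 UMIs in 4 of 5 Flcn iΔEC cells and 0 in the 4 control cells, at least 17.95-fold higher against a floor of 3 counts. With 9 cells from 2 libraries, a difference between libraries and a mixture of unlike cells in 1 cluster cannot be told apart.

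The fibroblast-like cells were rich in fibrillar collagen and small proteoglycans. Col1a1 stood at 14587 CPM in control cells (14010.3 to 15182) against 11407 CPM in Flcn iΔEC cells (10919 to 11911). Col3a1, outside the rule, was at 16090.2 and 18076 CPM. Dcn, for the proteoglycan decorin, was at 8818 and 14319.6 CPM. Lum, a related proteoglycan gene that the rule did not use, was at 1691 and 2180.4 CPM. Pdgfra was found in this set and in no other, at 78.8 and 166 CPM, and Dpt, for dermatopontin, was at 951 and 1154 CPM. The transcription factor genes Gata6 (230.3 and 166 CPM) and Tcf21 (109 and 122 CPM) were at 0 or near it in smooth muscle-like cells.

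A subgroup of these cells carried Pi16, a marker of fibroblasts in the outer layer of vessels. It was chosen after the data were seen and held 7 of the 21 cells, 1 control and 6 Flcn iΔEC, against 14 without Pi16, 9 control and 5 Flcn iΔEC. The surface antigen gene Ly6a was at 1177 CPM in cells with Pi16 and 126 CPM in those without. Mfap5, for a microfibril protein, was at 3531 against 902 CPM, and Clec3b, for tetranectin, at 2825 against 768 CPM. The peptidase gene Dpp4, often found with Pi16, had 8 UMIs in cells with Pi16 and 0 in the others. In the opposite direction, the chemokine gene Cxcl12 was at 131 CPM with Pi16 and 698 CPM without. Most cells with Pi16 came from 1 library, so state and library overlap, and several comparisons of fibroblast-like cells are also given without them.

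The 6 cells with mesothelial markers expressed keratin 19 (Krt19) at 2018 CPM in the control library and 1491 CPM in the Flcn iΔEC library. Mesothelin (Msln) was at 1173 and 1352 CPM, and both genes were at 0 in every other set of members. Their Dcn level was 8274 and 9328 CPM, while Acta2 was at 0. The complement gene C3 was their most distinct secreted product among the complement genes, at 1829.98 CPM in control cells (1513 to 2193) against 2878 CPM in Flcn iΔEC cells (2292 to 3568). Fibroblast-like cells had 194 and 105 CPM of C3. The mesothelial-marker cells differed in other ways too: myeloid markers summed to 187.7 and 1144.3 CPM, all from Cd74 in the 2 Flcn iΔEC cells, which also had the highest doublet scores of the members, 0.115 and 0.193. Whether these bear on C3 was not tested.

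The 5 cells with glial markers met the rule through collagen: Col1a1 was at 6314 CPM in the control cells and 2938 CPM in the Flcn iΔEC cells, while Dcn was at 48.9 CPM and 0. Elastin (Eln) was at 0 in both libraries, unlike in the other sets.

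The members carried transcripts of secreted factors that act on vessels, at levels that differed by set. Figf encodes VEGF-D, a ligand of the lymphatic receptor VEGFR-3. It was at 139 CPM in control against 111 CPM in Flcn iΔEC members, against 1.86 and 1.14 CPM in endothelial barcodes. Its relative Vegfc was low in members, at 21.4 and 26.5 CPM, and higher in endothelial barcodes, at 114 and 50.1 CPM. Angpt1, for an agonist of the endothelial receptor Tie2, was at 24.1 and 23.9 CPM in members and 3.41 and 1.73 CPM in endothelial barcodes. Slit2, for a guidance cue read by Robo receptors, was at 88.4 and 215 CPM in members and 12.4 and 5.74 CPM in endothelial barcodes. Ccl11, for eotaxin, was at 93.7 and 50.4 CPM in members and at 0 in endothelial barcodes of both libraries. The alarmin gene Il33 was at 64.3 and 98.1 CPM in members and 23.2 and 5.63 CPM in endothelial barcodes. Each of these genes stood on the same side of its endothelial level in both libraries. Within the members, Figf was highest in cluster 3 and near 0 in smooth muscle-like cells (0 and 16.4 CPM).

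**Figure D3:**
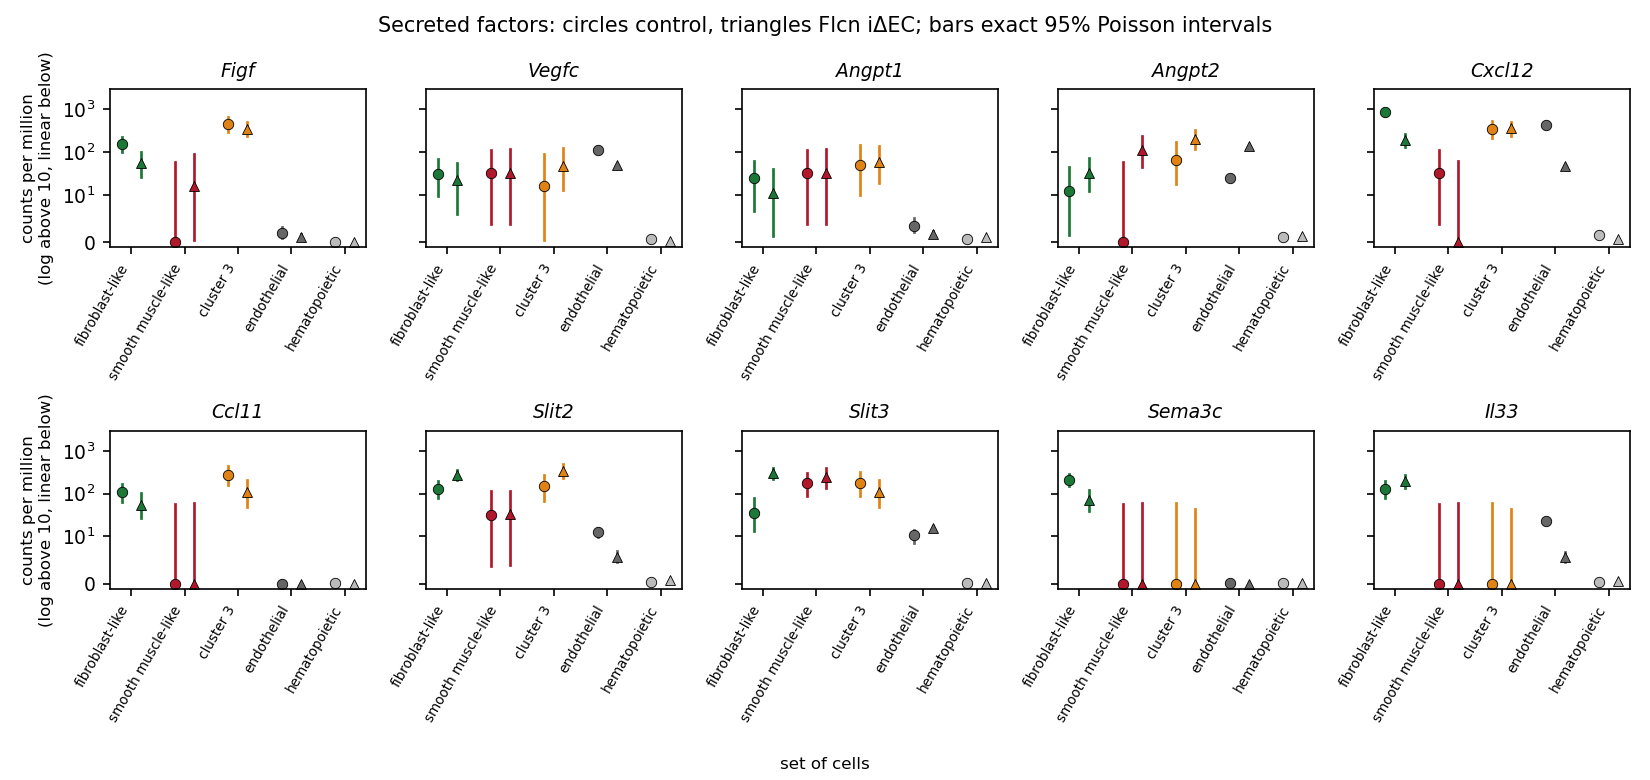
CPM of 10 genes for secreted factors, with 95% Poisson bars, in fibroblast-like cells, smooth muscle-like cells, cluster 3, endothelial barcodes and hematopoietic barcodes of each library. Figf is highest in cluster 3 in both libraries, and Cxcl12 in fibroblast-like cells is lower in the Flcn iΔEC library.

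The comparison of Flcn iΔEC with control members asks how stromal cells differ when the endothelium has lost folliculin. The share of counted genes at least 2-fold apart was 4.84% over all members, 9.96% in the fibroblast-like set and 9.85% in the smooth muscle-like set. Of the 14 folliculin pathway genes, only 3 could be counted over all members, 2 in the fibroblast-like set and 0 in the smooth muscle-like set, and none of those counted stood 2-fold apart. The most complete difference was in sex-linked genes. The fibroblast-like set differed in immediate early genes, in imprinted genes, which went both ways, and in Mfap5, and the smooth muscle-like set in heat shock genes and Col3a1. Every ratio is Flcn iΔEC over control, with a conditional exact 95% interval.

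Flcn itself was too rare to read. It had 3 UMIs in each library, 8.03 CPM in control against 7.95 CPM in Flcn iΔEC members, a ratio of 0.990 (0.133 to 7.39). Counts at the 3′ end do not check the deletion: endothelial barcodes, where the deletion was aimed, had 8.36 and 9.97 CPM. Tfe3, for a transcription factor that folliculin keeps out of the nucleus, had 5 and 12 UMIs in members, a ratio of 2.38 (0.779 to 8.61), not detectable as a difference at this depth.

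The 14 genes of the folliculin and MiT/TFE list summed to 800.8 CPM in control members and 853.5 CPM in Flcn iΔEC members. In endothelial barcodes the same list was at 952.7 and 2331.7 CPM, and in hematopoietic barcodes at 456.9 and 464.4 CPM. The target gene Gpnmb shows the contrast: it was at 0 and 2.65 CPM in members and at 0.465 and 69.6 CPM in endothelial barcodes. Lamp1, for a lysosomal membrane protein, was at 324 and 400.3 CPM in members, against 427 and 958 CPM in endothelial barcodes. The lysosomal protease gene Ctsd was at 230.3 and 209 CPM in members, against 279 and 729.7 CPM in endothelial barcodes. Of the 3 list genes with enough UMIs to count, 0 stood at least 2-fold apart and their median log2 ratio was 0.22.

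The libraries differed in sex-linked transcripts. Xist, the RNA of the inactive X chromosome, had 8 to 23 UMIs in each of the 26 Flcn iΔEC members and 0 in all 25 control members. Of 4 Y-linked genes, 23 of 25 control members had UMIs and 0 of 26 Flcn iΔEC members had any, and 2 control members had neither Xist nor Y-linked UMIs. Sex and genotype therefore cannot be told apart in any comparison of genotypes.

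Over all members, 2415 genes outside the rule had at least 50 UMIs. Of these, 65 were at least 2-fold higher in Flcn iΔEC members (2.69%) and 52 at least 2-fold lower (2.15%), 4.84% either way, and the median log2 ratio was -0.01. Apart from Xist, the genes furthest above 1 included Ly6a (29.5 and 408 CPM; ratio 13.9, 7.53 to 28.3) and Fmo2, for a flavin monooxygenase (29.5 and 392 CPM). Both came almost wholly from fibroblast-like cells. Flrt1 (5.36 and 199 CPM) came from cluster 3. The stress chaperone gene Hspa1a was at 147 and 655 CPM, a ratio of 4.44 (3.31 to 6.07). Klf9, for a hormone-responsive transcription factor, was at 77.7 and 281 CPM, and the glutathione transferase gene Gstm1 at 99.1 and 339 CPM. Slc43a3, for a nucleobase transporter, was at 45.5 and 191 CPM, and Hmcn1, for the matrix protein hemicentin, at 58.9 and 196 CPM.

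Some of these differences were shared by other cells of the libraries. The predicted gene Gm8797 was at 32.1 CPM in control against 180.3 CPM in Flcn iΔEC members. It was also at 16.9 and 136 CPM in endothelial barcodes, and at 17.4 and 172 CPM in hematopoietic barcodes. Gm26802, another predicted gene, was lower in Flcn iΔEC members, at 268 and 79.5 CPM, and lower too in endothelial (87.7 and 20.9 CPM) and hematopoietic barcodes (81.2 and 31.1 CPM). Hspa1a was higher in all 3 populations, at 63.8 and 229 CPM in endothelial and 33.8 and 1244 CPM in hematopoietic barcodes. These genes thus differed between the libraries and not only between the members.

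On the lower side, Enpp2, for the enzyme autotaxin, was at 139 CPM in control against 7.95 CPM in Flcn iΔEC members, but 36 of its 52 control UMIs came from 1 cell. The neuronatin gene Nnat was at 118 and 15.9 CPM. Dlk1, for a membrane protein of immature mesenchyme, was at 1039 and 178 CPM, a ratio of 0.171 (0.130 to 0.222). The scavenging chemokine receptor gene Ackr3 was at 137 and 23.9 CPM, and the binding protein gene Igfbp2 at 129 and 31.8 CPM. Rgs5, for a regulator of G protein signalling, was at 230.3 and 47.7 CPM. The uroplakin genes Upk1b (115 and 18.6 CPM) and Upk3b (313 and 92.8 CPM) came from the cells with mesothelial markers, 4 control and 2 Flcn iΔEC.

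By function, the list medians stayed within 2-fold over all members, and some lists held genes that went both ways. For the extracellular matrix, the median log2 ratio was 0.55 over 4 fibrillar collagen genes, 0.02 over 6 other collagens, -0.12 over 13 basement membrane genes, 0.69 over 8 proteoglycan genes and 0.14 over 14 elastic fibre genes. Collagen processing (9 genes) stood at -0.07, proteases and inhibitors (8 genes) at 0.11 and matricellular proteins (13 genes) at -0.01. In these lists, 5 genes were at least 2-fold higher (Aspn, Fbn1, Mfap5, Nov and Smoc2) and 3 at least 2-fold lower (Nid2, Ctgf and Tgfbi).

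Among contractile genes, 18 were counted with a median of -0.18, 0 were at least 2-fold higher, and Mylk, for myosin light chain kinase, was lower (449.9 and 223 CPM). The 4 smooth muscle regulators had a median of -0.28. For signals, the medians were -0.32 over 5 vascular growth factors and guidance cues, -0.86 over 3 chemokine genes, 0.30 over 7 genes of PDGF and TGF-β signalling, 0.16 over 10 genes of the IGF axis and 0.61 over 5 Wnt and retinoid genes. Slit2 (ratio 2.43) and Slit3 (ratio 2.70) were higher, and Sema3c (ratio 0.324) and Cxcl12 (ratio 0.400) were lower. Angpt2, for a context-dependent ligand of Tie2, was below the limit of 50 UMIs, at 18.7 and 82.2 CPM, and it was also higher in endothelial barcodes, at 24.8 and 136 CPM.

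The medians of 8 lists turned sign under at least 1 other choice of cells, scaling or UMI limit: other collagens, elastic fibre, proteases, matricellular proteins, vascular growth factors, the IGF axis, complement and cell cycle. The remaining lists had medians of 0.36 for 12 imprinted genes, 0.17 for 10 mesenchymal transcription factors, 0.09 for 5 complement genes, -0.45 for 14 immediate early genes, 0.04 for 9 heat shock genes, -0.49 for 6 hypoxia and glycolysis genes, 0.34 for 7 interferon and MHC class I genes and -0.33 for 2 cell cycle genes. Among the imprinted genes, Sgce, Zim1, Peg3 and H19 were at least 2-fold higher while Mest and Dlk1 were at least 2-fold lower.

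**Figure D4:**
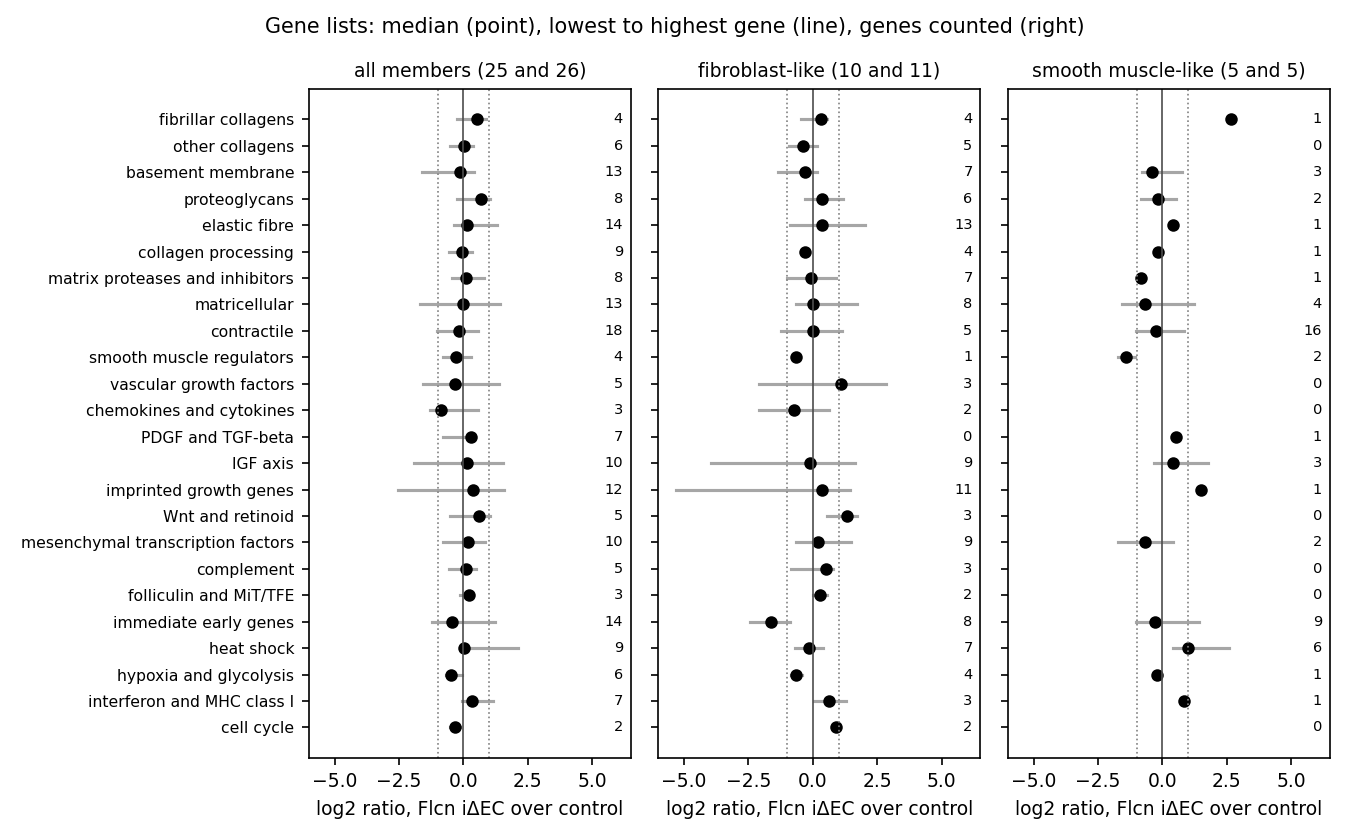
Median (point) and lowest to highest (line) log2 ratio of Flcn iΔEC over control for 24 functional gene lists in all members, fibroblast-like cells and smooth muscle-like cells, with the number of genes counted and dotted lines at 2-fold either way. The median of the immediate early genes, -1.62, lies below the lower dotted line in fibroblast-like cells, and that of the heat shock genes, 0.98, lies near the upper one in smooth muscle-like cells.

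Among fibroblast-like cells, 1014 genes outside the rule had at least 50 UMIs. Of these, 64 were at least 2-fold higher in Flcn iΔEC cells (6.31%) and 37 at least 2-fold lower (3.65%), 9.96% either way. The median log2 ratio was 0.04. Finer clusterings placed these cells unevenly by library. At resolution 1, a cluster of 14 of them had 4 control and 10 Flcn iΔEC cells, and with 5 neighbours at that resolution a cluster of 8 had 0 control and 8 Flcn iΔEC cells. With 1 library per genotype, a cell state and a library cannot be told apart there. The highest ratios were those of Xist, Fmo2, Hist1h2bc and Ly6a, and the lowest those of Dlk1, Igfbp5 and Klf6. The control cells also carried more transcripts of mural cell lists: 9 smooth muscle markers outside the rule summed to 739.4 and 194.2 CPM, and the pericyte markers to 739.4 and 283.0 CPM. Without the 7 cells with Pi16, 39 of 599 genes were at least 2-fold apart, 16 higher and 23 lower. Of the 101 genes, 43 could still be counted, and 24 of these were at least 2-fold apart in the same direction, with 0 in the other.

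Among the higher genes, Fmo2 was at 60.6 CPM in control (29.1 to 111) against 821 CPM in Flcn iΔEC cells (694 to 965), a ratio of 13.5 (7.16 to 28.8). Every one of the 11 Flcn iΔEC cells had Fmo2 UMIs, against 3 of 10 control cells. Thinned to 2000 UMIs per cell, 59.1% and 11.2% of cells had any, and no smooth muscle-like cell had one. Ly6a was at 66.7 and 849 CPM, with 0 to 10 UMIs per cell against 0 to 59, so the ranges overlap. Without the cells with Pi16 both gaps were smaller, and both genes fell under the limit of 50 UMIs: Fmo2 was at 57.7 and 214.9 CPM (log2 ratio 1.83) and Ly6a at 64.1 and 255.1 CPM (1.93). Slit3, for a Robo ligand, was at 36.4 and 299.6 CPM, a ratio of 8.24 (3.55 to 23.4), with UMIs in 4 of 10 control and all 11 Flcn iΔEC cells. Klf9 was at 54.5 and 283 CPM, Slc43a3 at 60.6 and 283 CPM, and Gstm1 at 109 and 477 CPM. Mpp6, for a membrane scaffold protein, was at 90.9 and 449 CPM. Without the cells with Pi16 these also fell under the limit, with log2 ratios of 2.87 for Slit3, 1.83 for Klf9, 2.53 for Slc43a3, 1.28 for Gstm1 and 2.17 for Mpp6. The histone gene Hist1h2bc was at 18.2 and 288 CPM, but 37 of its 52 Flcn iΔEC UMIs came from 1 cell.

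Matrix genes of the fibroblast-like cells went both ways. Mfap5 was at 679 CPM in control against 2779.6 CPM in Flcn iΔEC cells, a ratio of 4.10 (3.33 to 5.07), with 0 to 45 UMIs per cell against 5 to 136. Fbn1, for fibrillin-1, the backbone of microfibrils, was at 576 and 1437 CPM. Fibulin-2 (Fbln2) was at 139 and 427 CPM, and the proteoglycan gene Aspn at 551 and 1248 CPM. Of 13 elastic fibre genes, 3 were at least 2-fold higher and 0 lower, with a median log2 ratio of 0.34. Eln was lower but within 2-fold, at 7103 and 3867 CPM, and Col15a1, a collagen of the basement membrane zone, was at 218 and 83.2 CPM. The medians were 0.33 for 4 fibrillar collagens, 0.35 for 6 proteoglycans, -0.38 for 5 other collagens, -0.30 for 4 collagen processing genes and -0.29 for 7 basement membrane genes. Without the cells with Pi16, Mfap5 still stood 2-fold apart (647 and 1437 CPM), but Fbn1 (log2 ratio 0.46) and Aspn (0.69) did not, and Fbln2 (1.07) and Col15a1 (-0.47) fell under the limit.

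Signals and regulators of the fibroblast-like cells split both ways. The chemokine gene Cxcl12 was at 855 CPM in control (719 to 1008) against 194 CPM in Flcn iΔEC cells (135 to 270), a ratio of 0.227 (0.152 to 0.331). It was also lower in endothelial barcodes, at 423 and 47.7 CPM, but not in cluster 3, at 345 and 359 CPM. Sema3c, for a secreted semaphorin, was at 212 and 72.1 CPM, and Figf at 152 and 55.5 CPM, but with 48 and 35 UMIs in all these 2 were not counted among the compared genes. The Wnt ligand gene Wnt5a was at 90.9 and 316 CPM, and the Wnt inhibitor gene Sfrp1 at 121 and 316 CPM. Slit2 was at 127 and 277 CPM. Osr1, for a transcription factor of mesenchymal progenitors, was at 152 and 438 CPM. The list medians were 1.09 over 3 vascular growth factors and guidance cues, 1.34 over 3 Wnt and retinoid genes and 0.22 over 9 mesenchymal transcription factors. Without the cells with Pi16, Cxcl12 (log2 ratio -1.69) and Osr1 (1.12) stayed beyond 2-fold. Wnt5a (1.25), Sfrp1 (1.27) and Slit2 (1.25) fell under the limit of 50 UMIs. Sema3c and Figf, already under it, had log2 ratios of -2.74 and -0.63.

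The growth factor Igf1 was at 72.7 CPM in control against 239 CPM in Flcn iΔEC fibroblast-like cells, a ratio of 3.28 (1.70 to 6.83). Its binding proteins went separate ways: Igfbp6 was at 164 and 355 CPM, Igfbp3 at 406 and 149.8 CPM, and Igfbp5 at 333 and 16.6 CPM. The Igfbp5 ratio, with 3 UMIs in the Flcn iΔEC cells, was 0.0499 (0.0100 to 0.154). The fetal growth factor gene Igf2 was close, at 867 and 1121 CPM. Among other imprinted genes, Dlk1 was at 1758 and 38.8 CPM, a ratio of 0.0221 (0.0088 to 0.0461), with UMIs in 5 of 10 control and 3 of 11 Flcn iΔEC cells. The highest count in a control cell was 87 UMIs, against 5 in a Flcn iΔEC cell. Mest was at 569.7 and 172 CPM, while Peg3, for a zinc finger protein, was at 848 and 2291 CPM and its neighbour Zim1 at 182 and 427 CPM. Of 11 imprinted genes counted, 2 were at least 2-fold higher and 4 at least 2-fold lower, with a median of 0.37. Without the cells with Pi16, Dlk1 (log2 ratio -4.38), Igfbp5 (-4.74), Igfbp3 (-1.77) and Mest (-1.49) stayed beyond 2-fold, and Peg3 (0.79) did not. Igf1 (2.31) and Zim1 (0.45) fell under the limit, as did Igfbp6, which turned direction (-1.99). Igf2 also turned direction and was still counted, at 736.8 and 590.8 CPM (-0.30).

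Immediate early genes, which are switched on within minutes of a stimulus, including tissue dissociation, were lower in Flcn iΔEC fibroblast-like cells. Of 8 counted, 6 were at least 2-fold lower and 0 higher, with a median of -1.62. Jun was at 1788 CPM in control (1589.6 to 2004) against 349.5 CPM in Flcn iΔEC cells (269 to 447), a ratio of 0.196 (0.146 to 0.257). Fosb was at 982 and 178 CPM, Junb at 618 and 166 CPM, Ier2 at 376 and 88.8 CPM, Fos at 1497 and 571 CPM, and Egr1 at 1285 and 621 CPM. Per cell, the sum over 16 such genes ran from 2778 to 24958 CPM with a median of 7672 in control cells, and from 369 to 8992 CPM with a median of 1175 in Flcn iΔEC cells. These ranges overlap.

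Cluster 3 went the other way. There the same 16 genes summed to 2713.0 CPM in control against 7048.6 CPM in Flcn iΔEC cells, and 6 of 7 counted were at least 2-fold higher. Per cell the ranges overlapped, at 970 to 5567 CPM in control and 2852 to 12333 CPM in Flcn iΔEC cells. For scale, 22 of 401 genes were at least 2-fold higher in that cluster (5.49%) and 10 at least 2-fold lower (2.49%), 7.98% either way. Smooth muscle-like cells gave no clear direction. Their sums were 19022.6 and 15903.1 CPM, but 681 of the 1202 control UMIs came from 1 cell, and the medians over cells were 10892 CPM in control against 18815 CPM in Flcn iΔEC cells. The sums were close in hematopoietic barcodes, at 10058.4 and 10001.4 CPM. The transcription factor genes Klf2 (539 and 144 CPM) and Klf6 (352 and 38.8 CPM) were also lower in Flcn iΔEC fibroblast-like cells. Without the cells with Pi16, Jun (log2 ratio -1.75), Klf2 (-1.97), Klf6 (-2.60), Ier2 (-1.74), Junb (-1.58) and Fosb (-1.37) stayed at least 2-fold lower, and Fos (-0.66) and Egr1 (-0.59) did not.

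**Figure D5:**
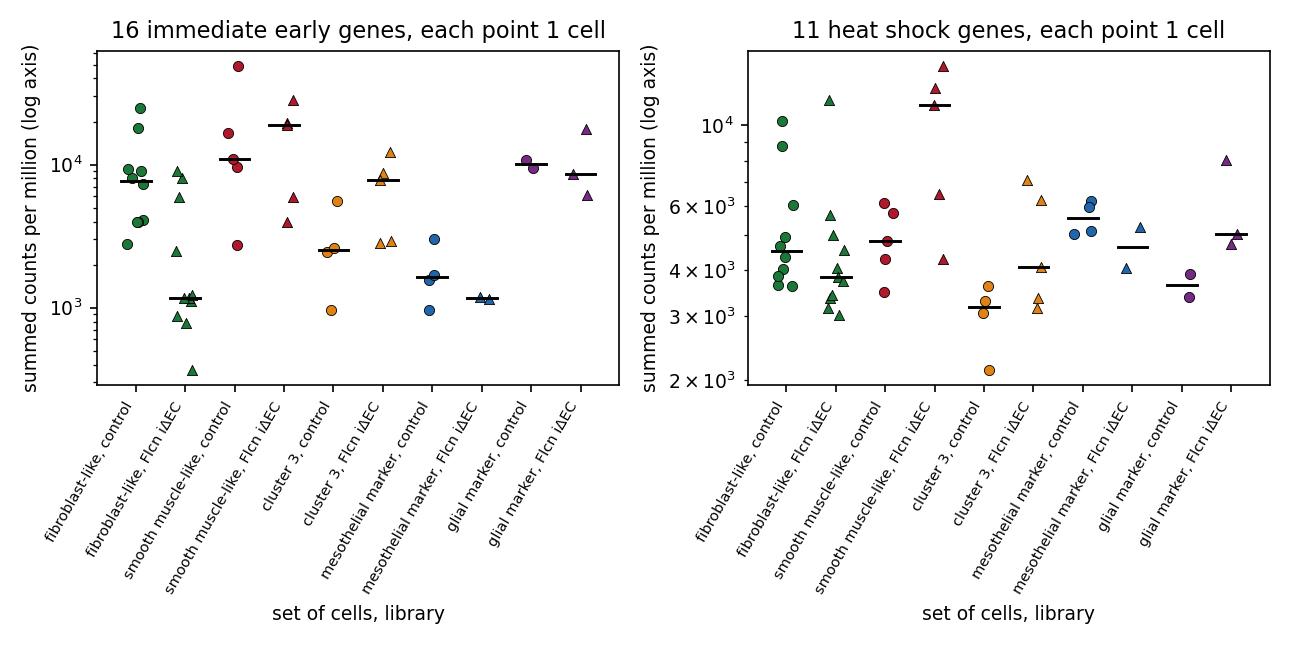
Per-cell summed CPM of 16 immediate early genes and 11 heat shock genes by set and library, each point 1 cell and each bar the median. Immediate early genes are lower in Flcn iΔEC than in control fibroblast-like cells (medians 1175 and 7672 CPM) and heat shock genes higher in Flcn iΔEC smooth muscle-like cells (medians 11363 and 4815 CPM), with overlapping ranges in both.

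Among smooth muscle-like cells, 335 genes outside the rule had at least 50 UMIs. Of these, 20 were at least 2-fold higher in the 5 Flcn iΔEC cells (5.97%) and 13 at least 2-fold lower (3.88%), 9.85% either way, with a median log2 ratio of -0.03. Of the contractile genes only Mylk was among them, and 3 heat shock genes were on the higher side. Of 4 matricellular genes counted, Cyr61 was at least 2-fold higher, with most UMIs in 1 cell, and Sparcl1 and Ctgf at least 2-fold lower, with a median of -0.66. With 5 cells per library, 1 cell can decide a value.

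Col3a1 was at 206 CPM in control (109.5 to 352) against 1407 CPM in Flcn iΔEC smooth muscle-like cells (1125 to 1738), a ratio of 6.84 (3.80 to 13.4). The 5 control cells had 0 to 7 UMIs and the 5 Flcn iΔEC cells 12 to 25, so the ranges do not overlap. Per cell, the 5 fibrillar collagen genes outside the rule, Col3a1 among them, summed to 0 to 924 CPM in control against 1021 to 2469 CPM in Flcn iΔEC cells. The lowest fibroblast-like cell had 5077 CPM of the same genes. Endothelial barcodes had 79.9 and 10.9 CPM of Col3a1, and hematopoietic barcodes 5.05 and 38.3 CPM. The hematopoietic set holds 7 barcodes that failed only the Ptprc condition of the rule. Its highest Flcn iΔEC barcode had 24413.2 CPM of the 5 fibrillar collagen genes, against a median of 0. Fibronectin (Fn1) was at 411 and 1619.8 CPM, with 0 to 12 UMIs per cell against 7 to 41. Igfbp4, for a binding protein of insulin-like growth factors, was at 222 and 785 CPM.

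Heat shock genes were higher in this set. Hspa1a was at 427 CPM in control against 2651 CPM in Flcn iΔEC smooth muscle-like cells, a ratio of 6.203 (4.11 to 9.70), with 1 to 16 UMIs per cell against 0 to 69. Hsp90aa1, for a cytosolic chaperone, was at 301 and 818 CPM, and Hspb1, for a small heat shock protein, at 538 and 1194 CPM. Of 6 heat shock genes counted, 3 were at least 2-fold higher and 0 lower, with a median of 0.98. Per cell, the list of 11 ran from 3482 to 6119 CPM in control against from 4286 to 14565 CPM in Flcn iΔEC cells. The list summed to 6010.9 and 10761.2 CPM in hematopoietic barcodes, a shift in the same direction, and to 5351.3 and 4993.3 CPM in fibroblast-like cells. In cluster 3 it summed to 3074.7 and 4882.5 CPM, also higher in the Flcn iΔEC library.

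Other genes at least 2-fold higher were Meg3, a maternally expressed noncoding RNA (301 and 884 CPM), Stbd1, for a glycogen-binding protein (285 and 899.9 CPM), and S100a6, for a calcium-binding protein (189.9 and 769 CPM). The stress factor gene Atf3 was at 522 and 1423 CPM, with 66 of its 87 Flcn iΔEC UMIs in 1 cell. The matricellular gene Cyr61 was at 506 and 1194 CPM, with 58 of 73 UMIs in 1 cell, and turned direction without the highest cell of each library, at 416.3 and 323.1 CPM.

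Among the 16 contractile genes counted, 0 were at least 2-fold higher and only Mylk was at least 2-fold lower, at 1250.2 CPM in control against 605 CPM in Flcn iΔEC smooth muscle-like cells, a ratio of 0.484 (0.319 to 0.724). Their median log2 ratio was -0.24. Both smooth muscle regulators counted were lower. Mef2c, for a myogenic transcription factor, was at 1045 and 491 CPM, with 31 of its 66 control UMIs in 1 cell. Klf4 was at 744 and 213 CPM, with 31 of its 47 control UMIs also in 1 cell. Without the highest cell of each library both were within 2-fold, Mef2c at 692.8 and 452.3 CPM and Klf4 at 324.8 and 172.3 CPM. Fbxl22, for an F-box protein of striated and smooth muscle, was at 823 and 179.97 CPM, a ratio of 0.219 (0.103 to 0.424). Csrp2, for a smooth muscle LIM protein, was at 1488 and 573 CPM, and Nexn, for an actin-binding protein, at 633 and 245 CPM. Ctgf, a matricellular target of mechanical signalling, was at 1203 and 393 CPM. Sparcl1, for a matricellular protein, was at 2975 and 1079.8 CPM, with 12 to 77 UMIs per cell against 10 to 18.

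Of 283 genes counted in both the fibroblast-like and the smooth muscle-like comparison, 5 were at least 2-fold higher and 9 at least 2-fold lower in fibroblast-like cells, against 16 and 7 in smooth muscle-like cells. Of these, only Xist was at least 2-fold higher in both and only Junb at least 2-fold lower in both, with 97 of its 134 control smooth muscle-like UMIs in 1 cell. Without the highest cell of each library, Junb turned direction in that set, at 751.0 and 827.8 CPM. None of the 283 was at least 2-fold apart in opposite directions. Whether the sets differ from each other in their ratios was not tested.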

How the data were processed

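The authors made the deposited UMI counts per barcode with Cell Ranger 3.0 on mm10, and the deposited barcodes were taken as the authors had kept them. The members, gene lists and comparisons were chosen with earlier results of these data known. Gene lists for 16 cell types and 24 functions, with sex-linked genes apart, held 450 gene names, of which 447 were found among 28692 genes. Endothelial barcodes were those that passed the depth and mitochondrial limits with at least 2 Cdh5 UMIs and Ptprc at 0, and hematopoietic barcodes those with a Ptprc UMI and Cdh5 at 0. These sets hold the barcodes that failed only the Cdh5 or only the Ptprc condition of the rule. Doublets were scored with Scrublet in each library and none was removed, since no member was called one. Marker sums of the label check left out the genes of the rule. Members were clustered with Leiden (15 neighbours, resolution 0.5) on variable genes. Between libraries, genes outside the rule with at least 50 UMIs summed over the set were compared by log2 ratios of CPM with 1 count added. Ratios printed in the text are of raw CPM. The rule genes were thus left out of the counts of compared genes and of the list medians and ranges. Folds against 0 use a floor of 3 counts summed over the library. Shares of cells were thinned to 2000 UMIs. Named genes were taken from the 10 highest and the 10 lowest ratios in all members and in each named set. Only genes of at least 100 CPM in 1 library were ranked. Others were the 10 most distinctive genes of each set, the 10 most abundant genes over all members, and genes of the fixed lists. Pi16, Dpp4, the fibroblast-like subset and the genes compared by Pi16 were chosen after their values were seen. Software was Python 3.11.15 with numpy 2.4.6, scipy 1.17.1, pandas 2.3.3, scanpy 1.11.5, scikit-learn 1.9.0, scikit-image 0.26.0, leidenalg 0.10.2, igraph 0.11.9, umap-learn 0.5.12 and matplotlib 3.10.9.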

Additional observations from a re-analysis of the deposited data

Results flagged for a closer look

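Some barcodes outside the members carried a stromal signal. In all, 7 barcodes, 2 control and 5 Flcn iΔEC, met every condition of the rule except that of Ptprc at 0. They had at least 1 Ptprc UMI and Cdh5 at 0, so the hematopoietic set holds them. Their summed UMIs over the 5 genes of the rule reached 1264, where a count of 0 would allow 3. The control barcodes had 545 and 559 such UMIs, and the Flcn iΔEC barcodes 83, 130, 420, 698 and 1264. Their origin was not tested.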

How the results depend on the processing

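No paired analysis was possible because each genotype had 1 library. The medians of 8 lists, all within 2-fold as reported, crossed 0 under at least 1 alternative, and the share of barcodes that were members stayed within its counting interval under every one. The counts of genes at least 2-fold apart depended on the UMI limit. With at least 20 UMIs they were 465 for all members, 322 for fibroblast-like and 99 for smooth muscle-like cells, and with at least 200 UMIs they were 21, 19 and 1. The share on the higher side was 55.6% for all members, 40.4% with at least 20 UMIs, 66.7% with at least 200 and, chosen after seeing the data, 47.2% with up to 2 Ptprc UMIs, and for fibroblast-like cells it was 63.4%, 52.5% with at least 20 UMIs and 41.0% without cells with Pi16. For smooth muscle-like cells it was 60.6%, and with at least 200 UMIs the 1 gene apart was lower. Chosen after seeing the data, leaving out cells with Pi16 gave 39 genes, and adding cluster 3 to the smooth muscle-like cells gave 54. Clusters numbered 5 at resolution 1 and 6 with 5 neighbours at that resolution, the latter also chosen after seeing the data. List medians of log2 ratios moved with at least 20 UMIs for smooth muscle regulators (-0.66), vascular growth factors (0.86), chemokines (-0.39) and mesenchymal transcription factors (0.57). With at least 200 UMIs, medians moved for proteases (-0.15), smooth muscle regulators (-0.78), vascular growth factors (-1.31), chemokines (-1.31) and complement (-0.24). The chemokine median was -0.38 with a rule sum of at least 40 UMIs, -0.31 with a rule sum of at least 1% of UMIs, and -1.14 as a mean over cells, and that 1% limit put PDGF and TGF-β at 0.0310. Also chosen after seeing the data, up to 2 Ptprc UMIs gave 0.0470 for PDGF and TGF-β and -0.84 for immediate early genes, and leaving out cells with mesothelial or glial markers gave 0.30 for vascular growth factors, 0.92 for Wnt and retinoid genes and 0.61 for cell cycle genes. The causes were not tested. With 51 cells and 1 library per genotype, counting intervals do not cover differences between mice.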
